A study of Mus musculus with 8 samples.

Results

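The Nr4a genes encode a family of orphan nuclear receptors, Nr4a1 (Nur77), Nr4a2 (Nurr1) and Nr4a3 (Nor1), and binding of phosphorylated CREB1 at these genes was described in mouse skeletal muscle. The members were the 3 genes of the family by name, out of 21883 protein-coding genes. A peak of chromatin immunoprecipitation sequencing (ChIP-seq) was assigned to a member when its summit, the position of highest signal, lay inside the annotated span of the gene or within 20000 bp of it. This gave 48 of the 37343 peaks of the series, and the 48 peaks merged into 16 separate sites of 17607 in all. The sites numbered 10 at Nr4a1, 4 at Nr4a2 and 2 at Nr4a3.

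The series held 8 samples, of which 4 were phospho-CREB1 libraries and 4 were inputs of sonicated chromatin. The C26 group (2 phospho-CREB1 libraries) came from male Balb/c mice injected under the skin of the flank with C26 mouse colon carcinoma cells at 2 months of age, a model of cancer-induced muscle wasting. The CTRL group (2 phospho-CREB1 libraries) served as the control, and the labels give no treatment for it. The treatment protocol also describes rolipram, an inhibitor of cAMP phosphodiesterase 4, or its vehicle in tumor-bearing mice, without naming which of them the mice of these libraries received. The extraction protocol names CREB or phospho-CREB1 antibodies, and the sample titles point to the latter. The labels name the gastrocnemius and the extraction protocol the quadriceps, and neither says whether a library came from 1 animal or from several. Any p-value here therefore measures only the spread between libraries, which may be technical.

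NR4A proteins are transcription factors without an established natural ligand, and their activity depends largely on how much of them a cell makes. Their genes are immediate early genes: in muscle they are switched on within a short time by beta-adrenergic stimulation, cAMP, calcium and exercise. CREB1 binds cAMP response elements (CRE) in their promoters and, once phosphorylated by protein kinase A and other kinases, recruits coactivators. In muscle the receptors have been linked to the use of glucose and lipid and to oxidative metabolism.

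The promoters are shown first because all 3 held the same number of CRE core motifs and carried a peak in every library. The 250 bp upstream of the RefSeq start (GRCm38.p6, the C57BL/6J reference, while the mice were Balb/c) were searched for the CRE core motif TGACG on both strands, for the complete CRE TGACGTCA, which contains the core motif on each strand, and for the NR4A monomer site AAAGGTCA. Capitals mark the core motif or its reverse complement, and each sequence runs 5′ to 3′ in the direction of transcription.
Nr4a1, chr15:101266596-101266845, plus strand: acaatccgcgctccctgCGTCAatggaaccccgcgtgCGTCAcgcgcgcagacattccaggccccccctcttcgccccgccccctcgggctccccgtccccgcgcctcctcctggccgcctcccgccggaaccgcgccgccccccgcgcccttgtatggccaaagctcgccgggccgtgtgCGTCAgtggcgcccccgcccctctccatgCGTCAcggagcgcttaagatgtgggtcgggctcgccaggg
Nr4a2, chr2:57124004-57124253, minus strand: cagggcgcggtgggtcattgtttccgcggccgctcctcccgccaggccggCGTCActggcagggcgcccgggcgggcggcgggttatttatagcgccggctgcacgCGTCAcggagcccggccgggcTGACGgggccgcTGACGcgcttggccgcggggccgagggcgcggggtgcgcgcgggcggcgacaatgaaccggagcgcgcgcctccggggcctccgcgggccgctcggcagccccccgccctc
Nr4a3, chr4:48045071-48045099, plus strand: gggTGACGtagcgtcccatgtCGTCAcat
Nr4a3, chr4:48045146-48045174, plus strand: ctgtggcataaaTGACGtgccgagagagc
For Nr4a3 only the stretches around the motifs are shown, because its annotated span begins 227 bp before the RefSeq start, and the motif centred 203 bp upstream lies between them and is not shown.

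Each of the 3 promoters held 4 core motifs, no complete CRE and no NR4A monomer site. Of 32817 RefSeq promoter windows of the same length, from genes of all types, 5825 (17.7%) held at least 1 core motif and 45 (0.137%) held at least 4, the Nr4a windows among them. A complete CRE was present in 508 windows (1.55%) and the monomer site in 439 (1.34%). In Nr4a1 the motifs were centred 231, 211, 67 and 38 bp upstream of the start, in Nr4a2 198, 142, 121 and 109 bp upstream, and in Nr4a3 229, 211, 203 and 145 bp upstream. The absence of the complete CRE says only that its letters were not in these windows.

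A start-site peak, with its summit within 1000 bp of a RefSeq start, was called in both CTRL libraries at 7350 of 21883 protein-coding genes (33.6%) and in every library at 2876 (13.1%). All 3 Nr4a genes had one in every library. Where no RefSeq start was given, either end of the gene span was used in its place.

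At Nr4a1, the Nur77 gene (chr15:101253902-101274795), the start-site peak was enriched over input 20.9- and 24.5-fold in the CTRL libraries and 13.7- and 8.05-fold in the C26 libraries, replicate 1 first here and throughout. Fold enrichment is the authors' peak caller's own value, set by each library and its input, so it orders peaks within 1 list and is not a measure of change between lists. The strength of a peak is therefore also given as a percentile by −log10 q within its list, where 100 is the strongest peak. The Nr4a1 start-site peak stood at 93.3 and 93.2 in the CTRL lists and at 90.3 and 63.7 in the C26 lists. It was above the percentile of 90 in 3 of 4 libraries and below it in C26 replicate 2. Lists of different length give different percentiles to the same site, so these values describe rank and not gain or loss.

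At Nr4a3, the Nor1 gene (chr4:48045078-48086447), the start-site peak was enriched 17.1- and 22.9-fold in the CTRL and 6.53- and 8.92-fold in the C26 libraries. Its percentiles were 90.9, 91.6, 77.5 and 68.6 in the same order. At Nr4a2, the Nurr1 gene on the minus strand (chr2:57106830-57124003), the fold enrichment was 11.1, 12.2, 9.50 and 7.34, and the percentiles were 78.9, 80.1, 79.9 and 53.4. The predicted gene LOC105244150 (chr2:57123334-57124694) overlaps this promoter.

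In both CTRL lists the start-site peaks ranked Nr4a1, then Nr4a3, then Nr4a2. The distance between Nr4a1 and Nr4a3 was 2.42 percentile points in CTRL replicate 1 and 1.63 in CTRL replicate 2, and Nr4a2 lay at least 11.5 points below Nr4a3 in each. The order was Nr4a1, Nr4a2, Nr4a3 in C26 replicate 1 and Nr4a3, Nr4a1, Nr4a2 in C26 replicate 2. Nr4a1 stood above Nr4a2 in all 4 libraries, and the places of the other pairs changed between lists.

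The distance from the summit to the nearest core motif differed between genes and libraries. At Nr4a2 the 4 summits fell between 151 and 185 bp upstream of the start, a range of 34 bp, and each was 9 to 26 bp from the middle of the nearest motif. At Nr4a1 the summits of CTRL replicate 1 and C26 replicate 2 were 209 and 204 bp upstream, 2 and 7 bp from the motif centred 211 bp upstream. Those of CTRL replicate 2 and C26 replicate 1, at 135 and 100 bp upstream, fell between the 2 pairs of motifs, 68 and 33 bp from the nearest. At Nr4a3 the summits lay 258 and 348 bp upstream in the CTRL libraries and 252 and 223 bp upstream in the C26 libraries, at 29, 119, 23 and 6 bp from the nearest motif, so that 3 of 4 were beside the upstream cluster and that of CTRL replicate 2 was farther out. The Nr4a3 summits at 258, 348 and 252 bp upstream lay outside the 250 bp searched, so a nearer motif beyond the window would be missed. A window of this length with 4 motifs leaves little room for a large distance, so closeness alone does not assign a summit to a motif.

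**Figure D1:**
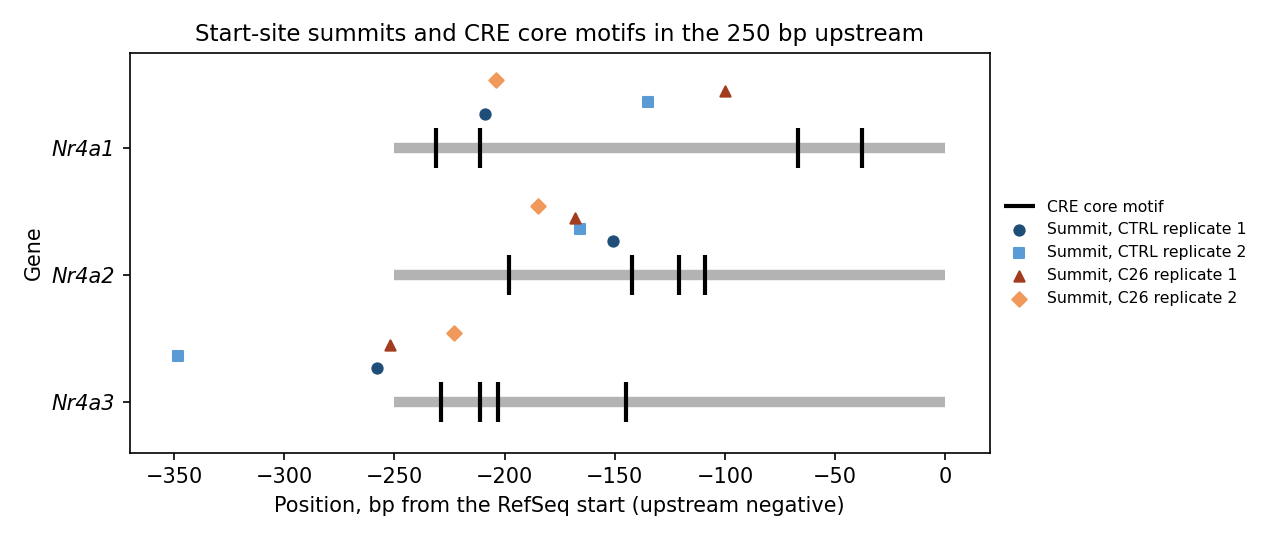
Positions of the start-site summits (coloured symbols, 1 per library) and of the CRE core motifs (black ticks) along the 250 bp upstream of the RefSeq start (grey bars), in bp from the start. The 4 summits of Nr4a2 sit within 34 bp, and each of the 3 genes has 4 motifs.

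Beyond the promoters, the 3 genes differed in the number and place of their sites. Nr4a1 had 10 sites, a number that 66 of 21883 protein-coding genes (0.302%) reached with the same window, against a median of 1 per gene. It had 4 sites with a peak in every library, which 34 genes (0.155%) reached, against a median of 0. These counts include sites toward both ends of the window that were nearer to the start of A330009N23Rik or Atg101 than to that of Nr4a1. Among them is a site with a peak in every library. Another of the 4 sites, 6.33 kb before the RefSeq start, counts through a C26 replicate 1 peak at a percentile of 0.0334, beside the threshold of that list. At a q of 0.001 the sites with a peak in every library numbered 7 over the 3 genes, in place of 8. Nr4a2 had 4 sites, reached by 10.6% of genes, and Nr4a3 had 2, reached by 37.1%. Each of them had 2 sites present in every library, a number that 1027 genes (4.69%) reached. Windows of neighbouring genes overlap and longer genes have longer windows, so these genes are not independent of each other.

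The strongest site of Nr4a1 was not the one at its RefSeq start. It lay upstream of the gene, 20.5 kb from the RefSeq start and 7476 to 7526 bp before the annotated span, at chr15:101246002-101246897. Its fold enrichment was 29.8 and 43.5 in the CTRL libraries and 21.6 and 16.9 in the C26 libraries. In each list it ranked above the promoter, with percentiles of 96.2, 97.1, 94.8 and 91.1. The 4 summits fell within 50 bp of each other. No other RefSeq start in the promoter table was nearer to it than that of Nr4a1.

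A further site of Nr4a1, at chr15:101253786-101254426, covered the first base of the annotated span. Its median summit was 12.8 kb before the RefSeq start. Its summits lay 155 to 257 bp inside the span. No RefSeq start was given at this end of the span, so it was neither searched for motifs nor used as a start. The fold enrichment was 20.3 and 14.5 in the CTRL libraries and 7.76 in C26 replicate 1, and C26 replicate 2 had no peak there. Another upstream site, at chr15:101240657-101242258 and 25.7 kb from the RefSeq start, was nearer to the start of A330009N23Rik and had a peak in every library, with fold enrichments of 5.27, 14.2, 5.42 and 5.70. A site inside the span 6.33 kb before the RefSeq start, at chr15:101260075-101260965, had 9.18- and 11.8-fold enrichment in the CTRL libraries. It had 2.56-fold in C26 replicate 1, at a percentile of 0.0334 and so beside the threshold of that list, and 4.99-fold in C26 replicate 2.

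The other 5 sites of Nr4a1 were weaker or nearer to another gene. The site at chr15:101283384-101284277 was 315 bp from the start of Atg101, an autophagy initiation gene, and 17.1 kb downstream of the Nr4a1 start. It had 5.75- and 9.30-fold enrichment in the CTRL libraries and 3.19-fold in C26 replicate 1. A site 24.1 kb upstream (chr15:101242548-101243032) had 3.88- and 5.42-fold enrichment in the CTRL libraries only. The remaining 3 sites had a peak in 1 CTRL library each and in no C26 library, with 6.69-, 4.45- and 7.12-fold enrichment.

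Nr4a2 had its additional sites inside the gene. The strongest was at chr2:57116206-57117129, 7.16 kb downstream of the start, enriched 12.2- and 14.5-fold in the CTRL libraries and 5.02- and 10.0-fold in the C26 libraries. Its summits fell within 61 bp. It ranked above the promoter in CTRL replicate 1, CTRL replicate 2 and C26 replicate 2 (percentiles of 83.1, 81.3 and 75.3) and below it in C26 replicate 1 (48.9). A neighbouring site 6.37 kb downstream had 4.68- and 7.34-fold enrichment in the CTRL libraries and 4.90-fold in C26 replicate 1. A site 8.99 kb downstream (chr2:57114718-57115354) had 8.71- and 9.79-fold enrichment in the CTRL libraries and no peak in either C26 library. Whether these positions are exonic or intronic was not analysed here, because exons were not used.

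Nr4a3 had a pair of adjoining sites and nothing else within its window. The second site lay at chr4:48042659-48043755, 1.83 kb upstream of the start. Its fold enrichment was 20.9 and 22.6 in the CTRL libraries and 13.4 and 7.06 in the C26 libraries, with summits within 27 bp. By −log10 q it ranked above the promoter in 3 of 4 lists (percentiles of 92.7 and 92.9 in the CTRL lists and 90.1 in C26 replicate 1), and below it in C26 replicate 2 (49.6). No summit fell in the span downstream of the promoter, although at 41370 bp it is the longest of the family.

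**Figure D2:**
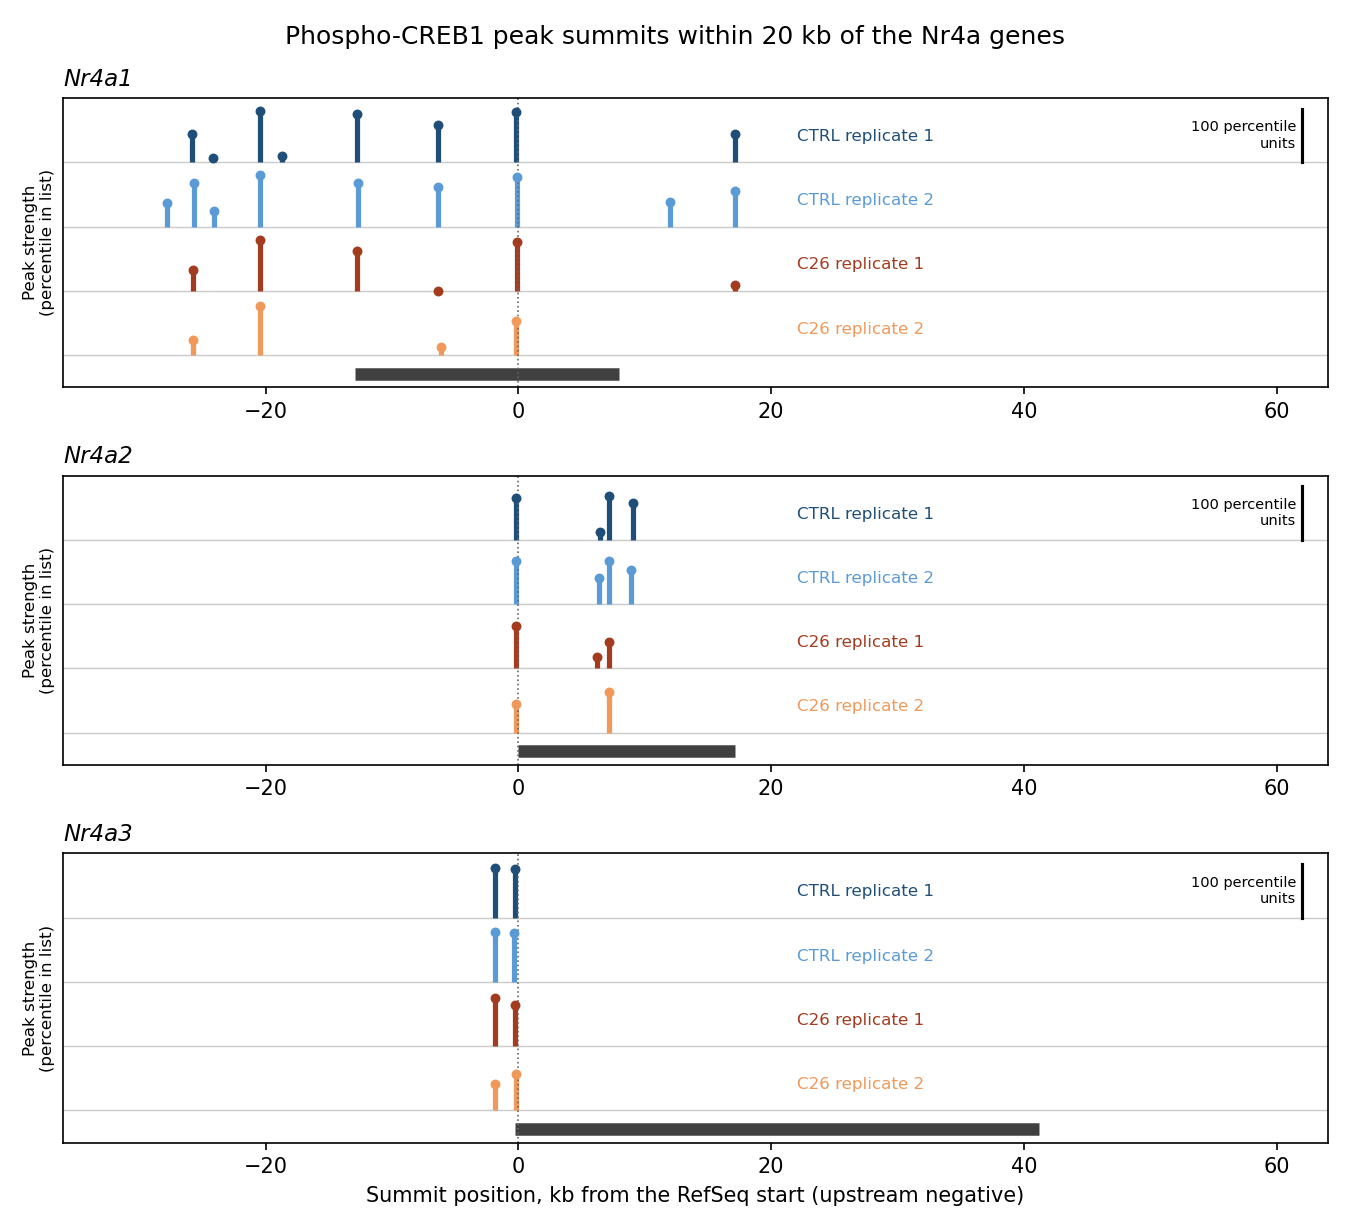
Summits of phospho-CREB1 peaks along the 3 Nr4a genes, in kb from the RefSeq start and oriented with transcription, with 1 track per library. Bar height is the percentile of the peak by −log10 q within its list, the dark bar is the annotated span, and Nr4a1 shows its strongest site 20.5 kb upstream in all 4 libraries.

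The comparison of CTRL and C26 muscle asked whether tumor-bearing mice lost binding at these genes. The members' windows held 14 and 15 peaks in the CTRL libraries and 11 and 8 in the C26 libraries, so both C26 libraries had fewer than either CTRL library. The CTRL mean was 14.5 ± 0.707 and the C26 mean 9.50 ± 2.12 peaks (SD, n = 2 libraries each), and they differed by 5 peaks (two-sided exact permutation p = 0.33, the smallest that 2 libraries against 2 can give). The whole lists also differed in length, at 10835 and 14975 peaks for CTRL and 7482 and 4051 for C26. As a share of its list, the windows held 0.129% (95% Wilson interval 0.0770 to 0.217) and 0.100% (0.0607 to 0.165) in the CTRL lists and 0.147% (0.0821 to 0.263) and 0.197% (0.100 to 0.389) in the C26 lists. The intervals cover counting error only and overlap between the groups. Sequencing depth is unknown, and a site without a peak is one that did not pass the threshold in that library.

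Of the 16 sites, 13 had a peak in both CTRL libraries, and 8 of these 13 had one in every library. Among all 8972 merged regions with a peak in both CTRL libraries, 33.2% had a peak in every library and 30.8% had no C26 peak. Of the 13 Nr4a sites, 2 had no C26 peak: the weak site 24.1 kb upstream of Nr4a1 and the site 8.99 kb inside Nr4a2. The 3 others had a peak in C26 replicate 1 and not in C26 replicate 2. No site had a C26 peak without a CTRL peak, a pattern that 956 of all 17607 regions (5.43%) showed, so that a count of 0 among 16 sites is near the background. Leaving out CTRL replicate 1 changed the 2 CTRL-only sites to 4, and leaving out C26 replicate 1 changed them to 5. They numbered 0 when every list was cut to the 4051 strongest peaks. Such a cut adds no C26 peak, and a site leaves this count only when a CTRL peak falls below the cut.

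Most sites that were strong in CTRL muscle had C26 peaks. When all regions present in both CTRL libraries were divided into 10 deciles by the lower of their CTRL percentiles, 7 Nr4a sites fell in decile 8 or higher. Of these, 6 had a peak in both C26 libraries, and the site covering the first base of the Nr4a1 span (81.3) lacked one in C26 replicate 2. Of all 2692 regions in these deciles, 74.7% had a peak in every library, near the share of the Nr4a sites. The CTRL-only site of Nr4a1 stood at 7.38, in a decile of CTRL strength in which 71.6% of all regions had no C26 peak. That of Nr4a2 stood at 64.4, in a decile in which 10.9% had none, so it lacked C26 peaks among regions of that strength that mostly had one. The promoter sites of Nr4a1, Nr4a3 and Nr4a2 were in deciles 10, 9 and 8, in which 0%, 0.223% and 3.34% of regions had no C26 peak. A peak in every library, as at these promoters, was present at 95.9%, 75.7% and 52.6% of regions in the same deciles. Muscle holds several cell types. Binding of phosphorylated CREB1 lost from a cell, fewer cells of a type and a less sensitive library cannot be told apart here.

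**Figure D3:**
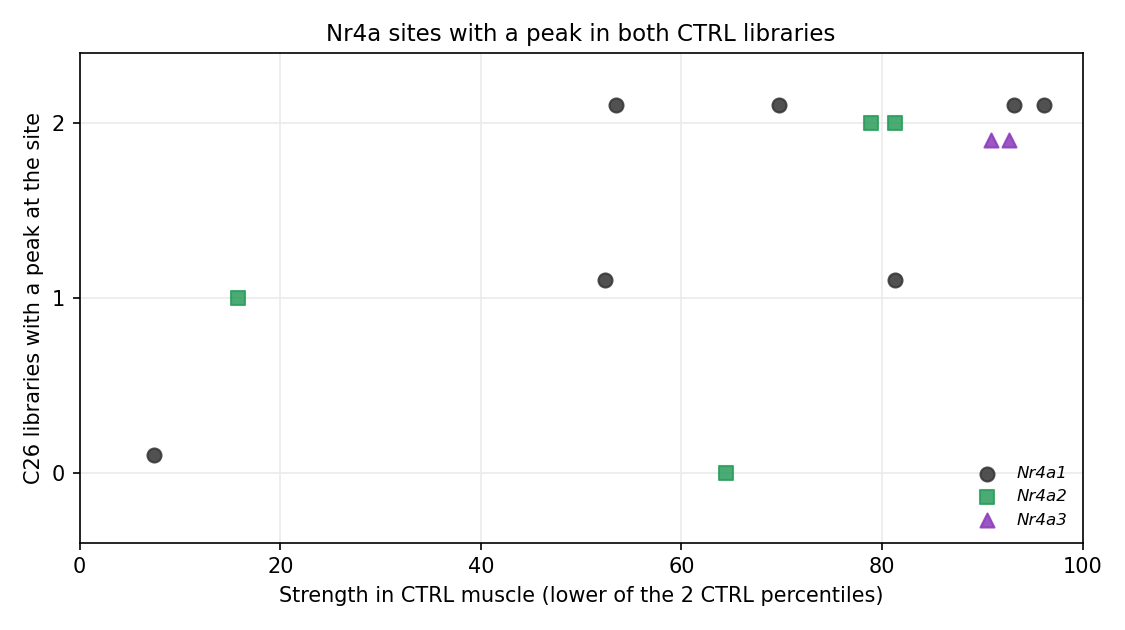
Number of C26 libraries with a peak (vertical axis, offset slightly by gene) against the lower of the 2 CTRL percentiles (horizontal axis) for the 13 Nr4a sites with a peak in both CTRL libraries. The CTRL-only sites stand at 7.38 (Nr4a1) and 64.4 (Nr4a2).

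The rest of the nuclear receptor family was counted in the same way. Of 46 other nuclear receptor genes, 19 (41.3%) had a start-site peak in both CTRL libraries and 5 (10.9%) in every library, near the shares of all genes. The highest by mean percentile were Nr6a1, the germ cell nuclear factor gene (94.3 and 94.5 in the CTRL lists, 90.2 and 72.4 in the C26 lists), and Nr1d2, the clock repressor Rev-erb beta (93.9, 94.5, 84.5 and 61.6). Nr1h2, the oxysterol receptor LXR beta, had percentiles of 87.1, 92.2, 60.9 and 79.5, and Nr3c2, the mineralocorticoid receptor, had 74.3, 83.3, 53.8 and 61.6. Esrra, which encodes the estrogen-related receptor alpha of mitochondrial gene control, was the fifth with a peak in every library. Without a start-site peak in any library were 21 genes, among them Esr2, Hnf4a and Hnf4g. Ppard and Rxrb, which encode a lipid-sensing receptor and a common partner of nuclear receptors, had peaks in both CTRL libraries and C26 replicate 1.

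**Figure D4:**
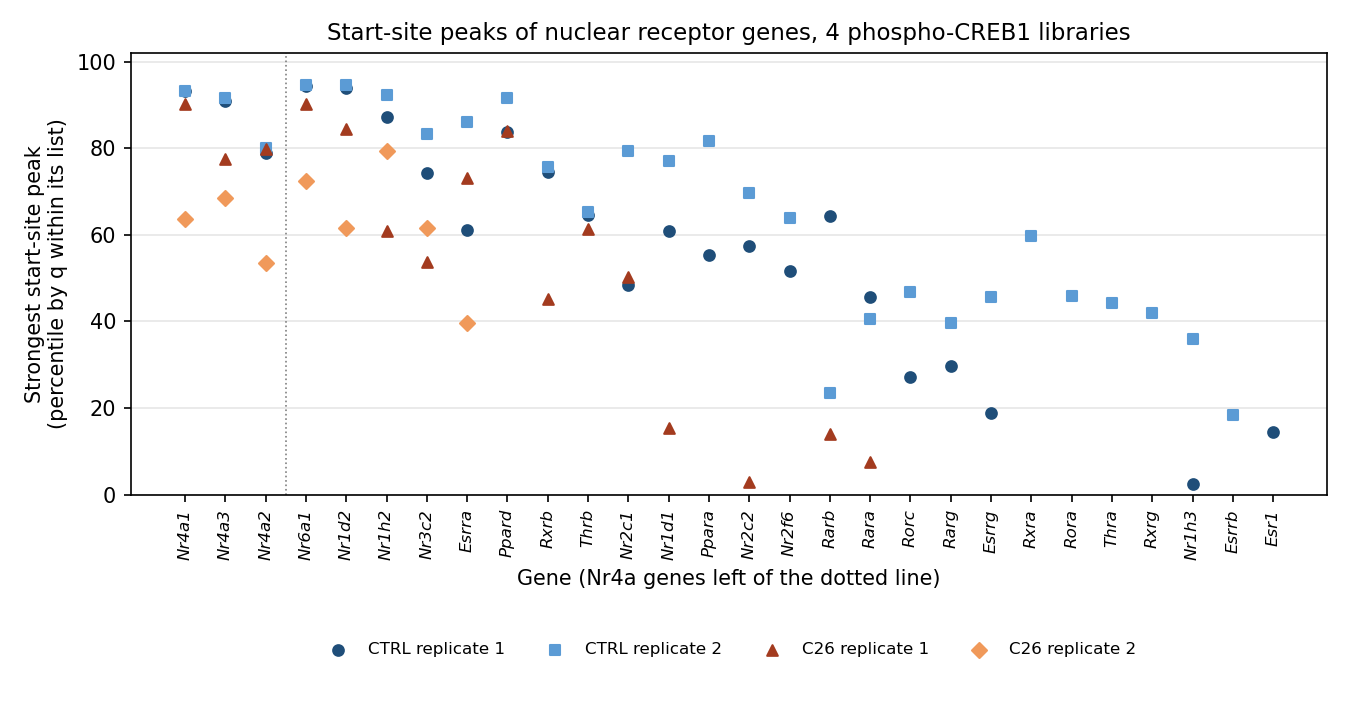
Percentile by −log10 q of the strongest start-site peak in each of 4 libraries (symbols) for the Nr4a genes and for the 25 other nuclear receptor genes with a start-site peak in any library. A missing symbol is a library without a peak, and the 3 Nr4a genes have all 4.

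Other early genes induced by cAMP include kinase, phosphatase and transcription factor genes. Of 16 such genes, 12 (75.0%) had a start-site peak in both CTRL libraries and 10 (62.5%) in every library. The shares of all protein-coding genes were 33.6% and 13.1%. Crem, Sik1, Fos and Junb were the highest by mean percentile. For Crem and Sik1, among others of the list, no RefSeq start was given, so their peaks lay near an end of the span that may not be the start. Junb, an AP-1 subunit gene, stood at 91.5 and 95.3 in the CTRL lists and 92.2 and 72.8 in the C26 lists. Dusp1, a phosphatase of MAP kinases, had 88.3 and 94.9 in the CTRL lists, 85.0 in C26 replicate 1 and no peak in C26 replicate 2. Arc and Pde4d had no start-site peak in any library.

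Genes that act on Nr4a transcription were bound in part. The 16 genes counted were those of the CREB family, its coactivators, the MEF2 factors and the class IIa histone deacetylases that repress them. Of these, 11 (68.8%) had a start-site peak in both CTRL libraries, beside 33.6% of all protein-coding genes. In every library 5 (31.3%) had one, beside 13.1%: Crem, the coactivator gene Crebbp, Creb1, Hdac4 and Mef2d. Crem was also counted among the early genes above. Hdac9, Mef2b and Mef2c had none in any library. Of 15 glucose and lipid genes that have been linked to NR4A action in muscle, 8 (53.3%) had a start-site peak in both CTRL libraries. The share of all protein-coding genes was 33.6%. In every library 2 (13.3%) had one, near the 13.1% of all protein-coding genes. The 2 genes were Dgat1, which makes triglyceride, and Slc2a4, the insulin-regulated glucose transporter GLUT4. No RefSeq start was given for either, so their peaks lay near an end of the span that may not be the start. Gbe1 and Pgam2, the next highest by mean percentile, had a start-site peak in both CTRL libraries and in C26 replicate 1. Neither had one in C26 replicate 2. Cd36, Fbp2 and Lpin1 had none in any library.

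The genes whose start-site percentiles over the 4 libraries were nearest to those of each member were found by Euclidean distance in percentile points. For Nr4a1 they were Lrp6 (0.80), Rev1 (1.97) and Gnao1 (2.34). For Nr4a2 they were Park7 (3.75), Ifrd2 (5.55) and Ltn1 (6.41). For Nr4a3 they were Zcwpw2 and Azi2, which share a peak (1.96), and Csnk1d (3.16).

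Start-site peaks were also counted at cell type markers, although a peak is no measure of expression and the counts do not settle the tissue. Of 8 muscle fiber markers, 6 (75.0%) had a peak in any library, beside 43.9% of all protein-coding genes, and 3 (37.5%) in both CTRL libraries, near the 33.6% of all genes. Among 4 markers each of endothelium, fibroblasts and leukocytes, those with a peak in any library numbered 1 (Kdr), 1 (Col1a1) and 0, and none had one in both CTRL libraries.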

How the data were processed

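Phospho-CREB1 ChIP-seq peak lists of 4 libraries were analysed. Per the submitters' processing notes the authors used MACS2 2.1.4, SAMtools 1.6, Picard, Bowtie2 2.3.5.1 and FastQC 0.11.2 on mm10 (GRCm38). Per the labels, the authors called peaks in each library against its own input at a q-value of 0.05, without pooling. What a further filter, abbreviated in the file names, removed is not given in the sources used here. The deposited values are the −log10 q-value and the fold enrichment, a ratio to input.

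Peaks of the 4 lists were merged where they overlapped by at least 1 bp, and percentiles were ranks by −log10 q within a list (Python 3.11.15, pandas 2.3.3, scipy 1.17.1). Gene spans and promoters came from RefSeq tables of GRCm38.p6; 17491 of 21883 protein-coding genes and all 3 members had a start there. Merging and assignment were tested on simulated peaks. No genome sequence was used, so sequences of sites outside the promoters were not analysed here. Named genes were the members, per list the 4 highest by mean percentile and up to 4 without a peak, and the 3 nearest by percentile. A gene that this rule names is not reported here. Genes named beside these (Esrra, Ppard, Rxrb, Dusp1, Mef2d, Kdr, Col1a1, the neighbouring genes Atg101, LOC105244150 and A330009N23Rik, and the genes with many core motifs in the closing section) were chosen after their values were seen. The members and lists were chosen with earlier results of these data known.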

Additional observations from a re-analysis of the deposited data

How the results depend on the processing

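The 3 start-site peaks in every library were found at distances of 500 and 2000 bp, at a q of 0.001, with trimmed lists and without each library in turn. The 8 sites in every library numbered 6 to 11 over the alternatives, with 6 for a window of 5000 bp and for lists trimmed to the shortest, and 11 without C26 replicate 2. No C26-only site appeared under any alternative run. The 2 CTRL-only sites became 1 with a window of 5000 bp and 0 with trimmed lists, which drop CTRL peaks and add no C26 peak. They ranged from 2 to 5 when 1 library was left out. With a window of 5000 bp the peaks fell in every library, from 14 and 15 to 9 and 10 in the CTRL libraries and from 11 and 8 to 8 and 6 in the C26 libraries. Ranking by fold enrichment moved 6 of 12 start-site percentiles by more than the replicate spread, most for Nr4a3 in C26 replicate 1, from 77.5 to 63.9. Counts over the 4 gene lists stayed within 1.5 times with distances of 500 and 2000 bp. With the replicate numbers as a block, an alternative chosen after seeing the data, CTRL exceeded C26 by 3 and 7 peaks, again a mean of 5 (two-sided exact permutation p = 0.50, the smallest for 2 pairs). No label ties the numbers to a shared animal or batch, and with 2 numbers whether they pair the libraries was not tested. Depth is unknown and limits every statement about a missing peak.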

Other observations

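Promoters with as many CRE core motifs as those of the Nr4a genes mostly had a peak in every library. Of the 45 RefSeq windows with at least 4 core motifs, at 44 genes, 39 had a summit within 1000 bp in every library, 6 in 1 to 3 libraries and 0 in none. Besides the 3 Nr4a genes, 35 genes were in the first group. They included Braf, a MAP kinase pathway kinase, with 5 motifs and percentiles of 97.6 and 97.8 in the CTRL lists and 97.5 and 90.1 in the C26 lists. They also included Ogdh, a subunit gene of the 2-oxoglutarate dehydrogenase of the TCA cycle, with 93.2, 94.5, 91.8 and 84.9, and Slc25a3, the mitochondrial phosphate carrier, with 97.2, 98.1, 93.0 and 93.5. Some of these windows belong to neighbouring genes that share 1 peak. Over all genes, at least 1 core motif was present in 48.3% of 3055 promoters of protein-coding genes with a start-site peak in every library and in 10.8% of 11172 promoters of genes with none. At least 4 were present in 1.18% and 0%. Base composition was not matched between these promoters, and its part was not tested.

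Between 20000 and 50000 bp from the spans, 5 further peaks were found near Nr4a1 and none near Nr4a2 or Nr4a3. Of these, 3 formed 1 site 29173 to 29275 bp beyond the end of Nr4a1, enriched 5.41- and 6.54-fold in the CTRL libraries and 5.44-fold in C26 replicate 2, with no peak in C26 replicate 1.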
